A study of Mus musculus with 4 samples.

Results

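The genes described here are those of the tumour necrosis factor (TNF) ligand and receptor superfamilies and of the TRAF adaptor proteins, followed in cultured mouse aortic smooth muscle cells with and without prostaglandin E2 (PGE2). They were taken by a rule on gene symbols, but the set was proposed with earlier results of these data known. The rule takes every symbol that starts with Tnfrsf or Tnfsf, every symbol of Traf with a digit, and Tnf, Edar, Lta, Ltb, Ltbr, Cd40 and Ngfr. The rule found 49 genes, read by 85 probes, among the 27306 distinct gene symbols of the array. A gene was tested if a probe of it stood well above background on both control arrays or on both PGE2 arrays, which held for 36 of the 49, among 17660 genes or unnamed probes in the fit.

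The cells were vascular smooth muscle cells grown from explants of the aorta of adult C57BL/6J mice, kept in DMEM. All 4 samples carry the genotype EP4-Tg, that is, a transgene for EP4, a receptor for PGE2. The 2 control samples were taken after 24 h without treatment and the 2 PGE2 samples after 24 h with PGE2. Neither the dose of PGE2 nor the promoter that drives the transgene is given in the sources used here, and no sample of another genotype was analysed here, so every difference is one between PGE2 and no treatment in transgenic cells. The series calls the samples biological replicates without saying whether they came from separate mice or cultures, so that p-values measure only the spread between these samples.

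TNF superfamily ligands are mostly trimeric membrane proteins that can be shed, and each binds 1 or a few receptors on the same or on neighbouring cells. Some receptors carry a death domain through which they can recruit the machinery of cell death, others bind TRAF proteins directly and signal to NF-kB and MAP kinases, and decoy receptors bind a ligand without passing on a signal. In the vessel wall TNF is known as an inflammatory cytokine that raises adhesion molecules and chemokines, and the pair of Tnfsf11 (RANKL) and its soluble decoy Tnfrsf11b (osteoprotegerin) is known from bone and from vascular calcification.

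Values are scaled intensities, the processed spot brightness after all arrays were brought to a common 75th percentile, given in the order control 1, control 2, PGE2 1 and PGE2 2. Differences are log2 of PGE2 over control with the standard error of limma's fit (n = 2 per group), and p-values are limma's, adjusted by Benjamini-Hochberg over all tested genes, with a threshold of 0.05. The brightness of a probe depends on the probe, so levels are compared between samples and not between genes. In RNA from a whole culture, fewer cells of a type and less RNA per cell cannot be told apart. The share of spots well above background was 47.9% to 53.8% per array. Above background here means flagged as well above background on that array. Below background means not so flagged, and not that signal was absent.

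With PGE2, 2 of the 36 tested genes were called higher, Tnfrsf9 and Traf3ip3, and 1 was called lower, Edar. This is 5.56% called higher against 0.396% of all tested genes, and 2.78% called lower against 0.272%. Tnfrsf9 and Traf3ip3 were below background on both control arrays and above it on both PGE2 arrays, as were 2.11% of all tested genes, and Edar was the reverse, as were 0.861%. Such genes entered the fit only through the group in which they were high, so that they had to differ and the shares are a description. Because the set was proposed with earlier results of these data known, no test was run over it. The median log2 difference of the 36 genes was 0.03, beside -0.03 over all tested genes, with 19 values above 0 and 17 below. The calls rest on both control samples: without control replicate 1 or control replicate 2, limma called 0 genes of the whole array, although 2710 and 2963 had an unadjusted p under 0.05. Differences of at least 1 on the log2 scale, in either direction, were found for 12 of the 36 genes (33.3%), against 10.8% of all tested genes. Among the 12, Edar, Tnfrsf9, Traf3ip3, Tnfrsf18 and Tnfsf11 passed the filter through 1 group only, so their sizes depend on dim values. Tnfrsf21 is also among them, although its second probe gave a log2 difference of 0.03.

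Counted without a test, both PGE2 arrays lay above both control arrays for 14 of the 36 genes (38.9%), against 24% of all tested genes. Both lay below for 9 (25%), against 28.3%, and the groups overlapped for the other 13, so that 63.9% did not overlap, against 52.2%. At an unadjusted p under 0.05, 12 genes were higher (33.3%, against 7.31% of all) and 5 lower (13.9%, against 10.5% of all). On the authors' own scale, which moves the median of all tested genes to 0.23, 14 of 17 members at that threshold were higher. Of all tested genes 4203 passed it on that scale, but how many of these were higher was not counted. The 14 are therefore not read as a trait of the members. Of the 36, 28 were well above background on all 4 arrays, and the other 8 (Edar, Tnf, Tnfrsf13b, Tnfrsf14, Tnfrsf18, Tnfrsf9, Tnfsf11 and Traf3ip3) passed through 1 group.

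**Figure D1:**
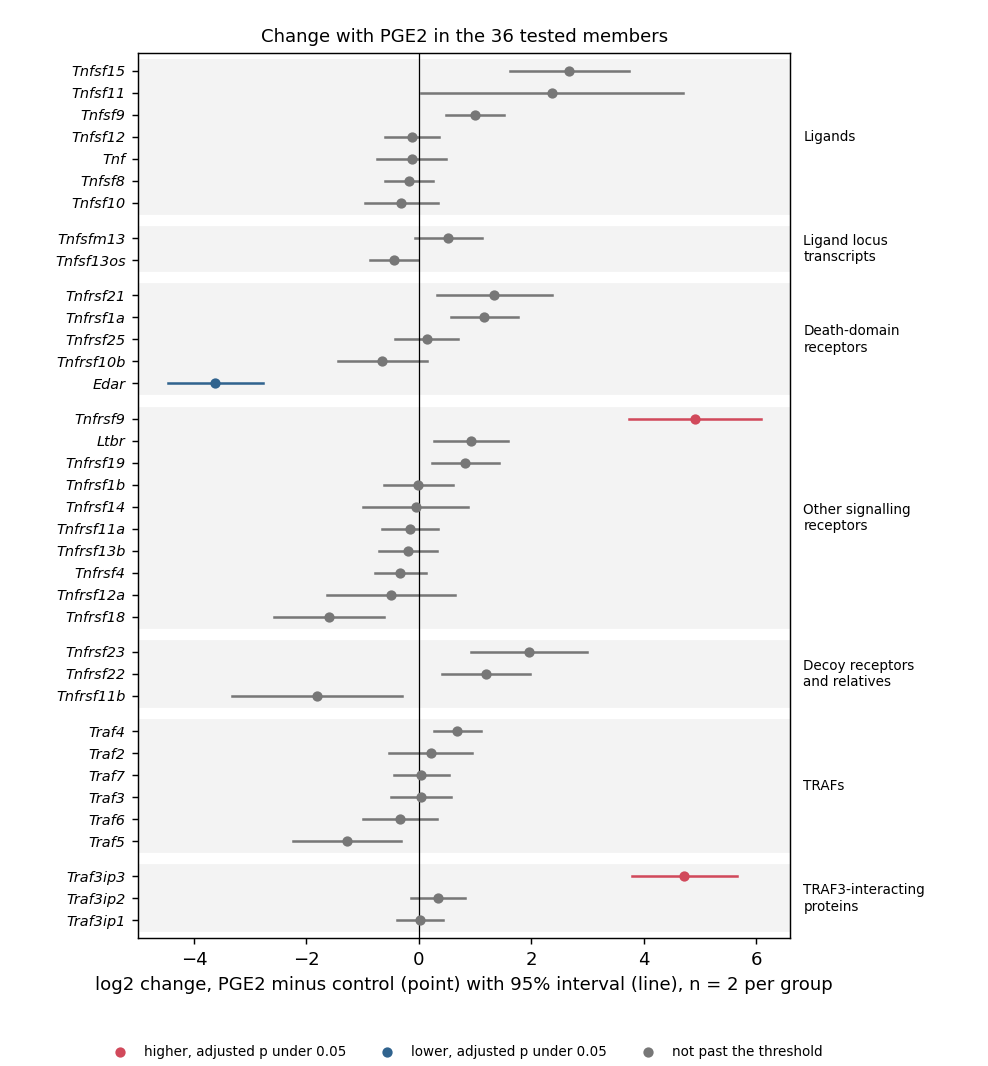
Log2 difference of PGE2 minus control (x axis) with the 95% confidence interval of the fit for each of the 36 tested genes (y axis), coloured by call. Tnfrsf9 and Traf3ip3 stand farthest to the right and Edar farthest to the left, and the intervals of the genes near the middle include 0.

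The sequences upstream of the 3 called genes and of Tnfsf15, the ligand with the largest difference, are shown because these are the members on which the results turn. They are RefSeq promoter windows on GRCm38.p6, the 250 bases before the annotated transcript start, on the strand of the gene and 5′ to 3′. The array's own probe positions are on mm9, another build. Capitals mark matches on either strand to an NF-kB motif (GGG and CC with any 5 bases between) or an AP-1 motif (TGANTCA). Tnfrsf9 has 2 windows, for 2 annotated starts, at chr4:150919905-150920154 (plus strand) and chr4:150927749-150927998 (plus strand). Traf3ip3 lies at chr1:193201547-193201796 (minus strand), Edar at chr10:58675697-58675946 (minus strand) and Tnfsf15 at chr4:63745060-63745309 (minus strand).
Tnfrsf9, first window: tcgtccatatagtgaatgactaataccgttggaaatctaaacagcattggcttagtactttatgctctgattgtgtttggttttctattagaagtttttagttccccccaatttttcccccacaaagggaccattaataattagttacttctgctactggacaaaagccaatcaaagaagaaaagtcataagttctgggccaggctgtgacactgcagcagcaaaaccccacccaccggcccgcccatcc
Tnfrsf9, second window: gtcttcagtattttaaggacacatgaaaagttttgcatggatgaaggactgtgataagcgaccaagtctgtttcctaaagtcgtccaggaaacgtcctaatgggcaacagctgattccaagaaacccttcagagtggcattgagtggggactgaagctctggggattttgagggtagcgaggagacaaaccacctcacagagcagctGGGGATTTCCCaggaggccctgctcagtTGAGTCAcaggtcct
Traf3ip3: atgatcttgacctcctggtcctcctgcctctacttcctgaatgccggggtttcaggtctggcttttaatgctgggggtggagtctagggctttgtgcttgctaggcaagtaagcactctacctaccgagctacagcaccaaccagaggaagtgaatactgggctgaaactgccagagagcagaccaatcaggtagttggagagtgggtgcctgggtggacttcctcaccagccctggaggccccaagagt
Edar: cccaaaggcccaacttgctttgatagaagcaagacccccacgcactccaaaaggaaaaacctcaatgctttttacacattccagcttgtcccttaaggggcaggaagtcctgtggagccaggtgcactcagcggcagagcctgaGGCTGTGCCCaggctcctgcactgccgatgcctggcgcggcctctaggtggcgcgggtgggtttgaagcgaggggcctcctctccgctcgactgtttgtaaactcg
Tnfsf15: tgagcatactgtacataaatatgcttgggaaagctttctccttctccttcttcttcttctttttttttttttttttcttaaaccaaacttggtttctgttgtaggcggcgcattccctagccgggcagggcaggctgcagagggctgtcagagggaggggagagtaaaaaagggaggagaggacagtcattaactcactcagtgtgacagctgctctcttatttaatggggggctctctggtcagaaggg

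The second Tnfrsf9 window holds 2 overlapping NF-kB matches, printed as 1 run of capitals, and 1 AP-1 match, and the Edar window holds 1 NF-kB match. The first Tnfrsf9 window and those of Traf3ip3 and Tnfsf15 hold none of the searched letters. Windows were found for 39 of the 49 genes, 43 in all. The NF-kB letters occurred in 27 of the 43 windows (62.8%), against 45.8% of 32851 windows of the same length. The AP-1 letters occurred in 4 (9.30%, against 6.75%). The full cAMP response element (TGACGTCA) occurred in 0 of the 43, against 1.55%, and its shorter core (TGACG, also contained in the full element) in 7 (16.3%, against 17.8%). A match describes letters in a window and not a site in use, and no match says only that the letters are not in that window.

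Of the 13 ligand genes, 7 were tested and none was called, at adjusted p-values from 0.0885 to 0.792 in limma's fit, although 3 had an unadjusted p under 0.05. Both PGE2 arrays lay above both controls for Tnfsf15, Tnfsf9 and Tnfsf11, and below them for Tnfsf10 and Tnfsf8. Tnfsf15 (TL1A), the ligand of the death-domain receptor Tnfrsf25, had scaled intensities of 222, 302, 2283 and 1204. The PGE2 arrays were both far above the controls, and the log2 difference was 2.68 ± 0.38 (SE) with an adjusted p of 0.0885. Its second probe gave 2.62 on the log2 scale. The call depended on the samples, since without PGE2 replicate 2 Tnfsf15 passed the threshold, at a log2 difference of 3.14 and an adjusted p of 0.0492, the lowest of a range up to 0.326 over the alternatives. The receptor Tnfrsf25 stood at 770, 990, 909 and 1018 with overlapping groups, and its log2 difference was 0.14 (95% confidence interval -0.42 to 0.69).

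Tnfsf9 is the ligand of Tnfrsf9 and is best known from antigen-presenting cells. It had intensities of 256, 229, 437 and 533. The 2 PGE2 arrays were above the controls, with a log2 difference of 1.00 ± 0.19 (SE) and an adjusted p of 0.126, so that the ligand did not pass the threshold at which its receptor did. Whether the 2 differences are unequal was not tested.

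Tnfsf11 (RANKL), the cytokine that drives osteoclast formation, read 51.9, 26.8, 89.4 and 415. Both PGE2 arrays were higher than the controls but differed widely from each other, and the log2 difference of 2.37 ± 0.85 (SE) had an adjusted p of 0.275. On the second Tnfsf11 probe the PGE2 arrays lay apart too: it was well above background on PGE2 2 alone, at 1330, and read 12.8 on PGE2 1. Without PGE2 replicate 1 the log2 difference was 3.48 and without PGE2 replicate 2 it was 1.26.

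The other tested ligands differed little. Tnf itself was dim, at 55.7, 40.8, 45.9 and 41.4, with overlapping groups and a log2 difference of -0.13 (95% confidence interval -0.74 to 0.48). Tnfsf10 (TRAIL), which binds death receptors, had a difference of -0.31, Tnfsf12 (TWEAK), the ligand of Tnfrsf12a, one of -0.12, and Tnfsf8 (CD30 ligand) one of -0.18. Beside Tnfsf12 in cytoband 11qB3 lie 2 further transcripts of the rule: Tnfsfm13, a membrane-bound form annotated under its own symbol, at 3546, 2833, 5100 and 4088 (log2 0.53, adjusted p = 0.317), and Tnfsf13os, a predicted RNA of the opposite strand of Tnfsf13, at 250, 238, 188 and 173 (log2 -0.44, adjusted p = 0.274). The first was higher on both PGE2 arrays and the second lower, with neither past the threshold. Tnfsfm13 and its neighbours overlap in the genome, and which transcripts each probe reads was not tested.

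Of the ligands, 6 were not tested. Lta (lymphotoxin alpha), Tnfsf4 (the OX40 ligand), Tnfsf13b (BAFF, a survival factor of B cells), Tnfsf14 (LIGHT) and Tnfsf18 (the GITR ligand) did not rise above background on any array. Ltb (lymphotoxin beta) was flagged as well above background only on PGE2 2, where it read 29.1. On the other arrays it read 29.6, 29.7 and 30.5 in order, no dimmer, since the lowest intensity so flagged differed between arrays.

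**Figure D2:**
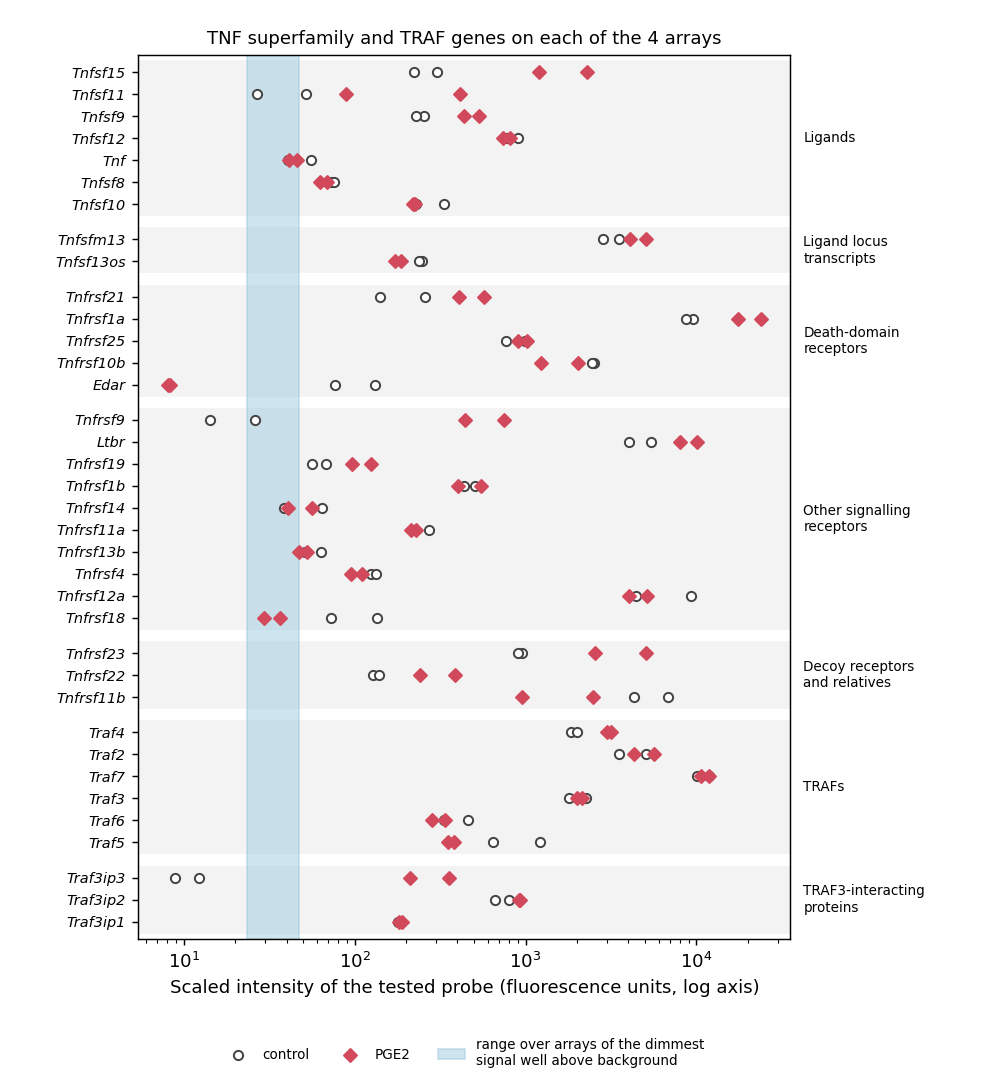
Scaled intensity of the tested probe (x axis, log scale) on each of the 4 arrays for the 36 tested genes (y axis), grouped by role, with open circles for control and diamonds for PGE2. The shaded band spans, over the arrays, the dimmest intensity that counted as well above background, and the Edar PGE2 points and the Traf3ip3 control points lie to its left, while the PGE2 points of Tnfsf11 lie far apart.

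Among the 24 receptor genes, 18 were tested, of which Tnfrsf9 was called higher and Edar lower. Tnfrsf9 (CD137) is a costimulatory receptor best known from activated T cells. It read 26.2, 14.2, 445 and 752, below background on both control arrays and above it on both PGE2 arrays. The controls were set at no less than the lowest intensity that counted as well above background on their array. The tested Tnfrsf9 probe was then at least 14.1-fold higher with PGE2 in the means of the log2 levels. The bounds given for other genes were computed in the same way. Each holds for the group means of the tested probe, and not for single arrays or other probes. The fitted log2 difference, which uses the dim values as measured, was 4.91 ± 0.43 (SE) with an adjusted p of 0.0465.

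The second Tnfrsf9 probe read 7.59, 45.5, 38.8 and 120. Its groups overlapped, with control 2 above PGE2 1, and its log2 difference was 1.88. Neither Tnfrsf9 probe was above background on a control array, so the size of the gap between their differences cannot be read. With the mean of both probes the log2 difference was 3.39 and the adjusted p 0.0928. With normexp background correction, which lifts dim values, the log2 difference of Tnfrsf9 fell to 2.76, still called at an adjusted p of 0.0344. Leaving out control replicate 1 or control replicate 2 ended the call, at adjusted p-values of 0.144 and 0.111, in a range from 0.0344 to 0.215 over all alternatives.

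Of the 6 death-domain receptors, 5 were tested and Edar was called. Edar, the receptor of ectodysplasin, known for its part in forming hair, teeth and skin glands, read 77.0, 132, 8.28 and 8.10. Both PGE2 arrays were below background and both control arrays above it, and Edar was at least 3.54-fold lower with PGE2. The fitted log2 difference was -3.62 ± 0.31 (SE) with an adjusted p of 0.0465. The other Edar probe was below background on all 4 arrays. The call was lost when any 1 sample was left out, at adjusted p-values from 0.0570 (without PGE2 replicate 2) to 0.144 (without control replicate 1), and with normexp the log2 difference was -1.29. Over all alternatives the adjusted p of Edar ranged from 0.0445 to 0.227.

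Tnfrsf1a, the death-domain receptor through which TNF acts on most cells, was well above background on every array, at 9574, 8663, 23789 and 17518. Both PGE2 arrays were above both controls, with a log2 difference of 1.16 ± 0.22 (SE) and an adjusted p of 0.126, and the second Tnfrsf1a probe gave 1.38. The other TNF receptor, Tnfrsf1b, which lacks a death domain, read 506, 439, 548 and 402. Its groups overlapped, and the log2 difference was -0.01 (95% confidence interval -0.63 to 0.61). Whether the 2 TNF receptors differ in their response was not tested.

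Tnfrsf21 (death receptor 6) read 140, 257, 409 and 568, with both PGE2 arrays above the controls and a log2 difference of 1.35 ± 0.37 (SE) at an adjusted p of 0.207. Its second probe, also above background on all arrays, had a log2 difference of 0.03, so that the 2 Tnfrsf21 probes gave different answers. Tnfrsf10b, the mouse death receptor for TRAIL, read 2502, 2458, 1235 and 2028, lower on both PGE2 arrays, with a log2 difference of -0.65 and an adjusted p of 0.343. Ngfr, the neurotrophin receptor p75, was below background on all 4 arrays.

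The decoy receptors and their mouse relatives showed differences in both directions with no call. Tnfrsf23 and Tnfrsf22 are mouse decoy receptors for TRAIL and neighbours in cytoband 7qF5. Tnfrsf23 read 956, 899, 5101 and 2563, with a log2 difference of 1.96 ± 0.38 (SE) and an adjusted p of 0.130. Tnfrsf22 read 128, 138, 389 and 240, with a log2 difference of 1.20 ± 0.29 (SE) and an adjusted p of 0.167. For both genes the PGE2 arrays lay above the controls, and PGE2 1 above PGE2 2. All 5 of their probes had differences above 0, but for Tnfrsf23 only the tested probe was above background on the control arrays. Another Tnfrsf23 probe was kept through the PGE2 arrays alone, and the remaining one was not kept. The genes are close copies of each other, and whether a probe of one also reads the other was not tested. The third gene of that band, Tnfrsf26, was above background on PGE2 2 alone, at 84.4, and was not tested.

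Tnfrsf11b (osteoprotegerin), the soluble decoy that binds Tnfsf11, read 4291, 6809, 951 and 2478. Both PGE2 arrays were lower than both controls, though apart from each other, and the log2 difference of -1.82 ± 0.55 (SE) had an adjusted p of 0.232. Without PGE2 replicate 1 the Tnfrsf11b difference was -1.13 and without PGE2 replicate 2 it was -2.51. Tnfrsf11a (RANK), the signalling receptor of Tnfsf11, read 273, 225, 230 and 215 with overlapping groups and a log2 difference of -0.16. The other Tnfrsf11a probes were not kept, as they were above background on PGE2 2 alone or on no array. The values of the trio were thus 2.37 for the ligand, -0.16 for the receptor and -1.82 for the decoy, and none of the 3 passed the threshold.

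Among the signalling receptors without a death domain, 10 of 14 were tested. Ltbr, the lymphotoxin beta receptor, which signals through the non-canonical NF-kB pathway, read 5438, 4034, 10065 and 7971, with both PGE2 arrays higher and a log2 difference of 0.94 ± 0.24 (SE) at an adjusted p of 0.186. Ltbr and Tnfrsf1a lie in the same cytoband, 6qF3. Tnfrsf19 (TROY) read 56.2, 68.0, 96.3 and 125, also higher on both PGE2 arrays, with a log2 difference of 0.83 and an adjusted p of 0.195. Tnfrsf12a (Fn14), the TWEAK receptor, read 9233, 4426, 4014 and 5150, with overlapping groups and a log2 difference of -0.49 that turned to 0.04 without control replicate 1.

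Tnfrsf18 (GITR), a receptor known from regulatory T cells, read 135, 73.1, 29.6 and 36.6. Both PGE2 arrays were lower, and PGE2 1 was below background, with a log2 difference of -1.59 ± 0.36 (SE) at an adjusted p of 0.158. Tnfrsf4 (OX40), another costimulatory receptor, read 124, 133, 110 and 95.7, with a log2 difference of -0.33. Tnfrsf14 (HVEM), the receptor of LIGHT, had a difference of -0.06. Tnfrsf4, Tnfrsf14, Tnfrsf18, Tnfrsf25 and Tnfrsf9 are 5 receptor genes of the same cytoband, 4qE2, and their log2 differences ranged from -1.59 for Tnfrsf18 to 4.91 for Tnfrsf9.

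The receptors of BAFF and its relative APRIL, known from B cells, were dim or below background. Tnfrsf13b (TACI) read 63.4, 51.6, 47.5 and 52.7 with overlapping groups and a log2 difference of -0.19, and Tnfrsf13c (the BAFF receptor) and Tnfrsf17 (BCMA) were below background on all 4 arrays. Cd40, the costimulatory receptor of antigen-presenting cells, and Tnfrsf8 (CD30) were below background on all arrays too.

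**Figure D3:**
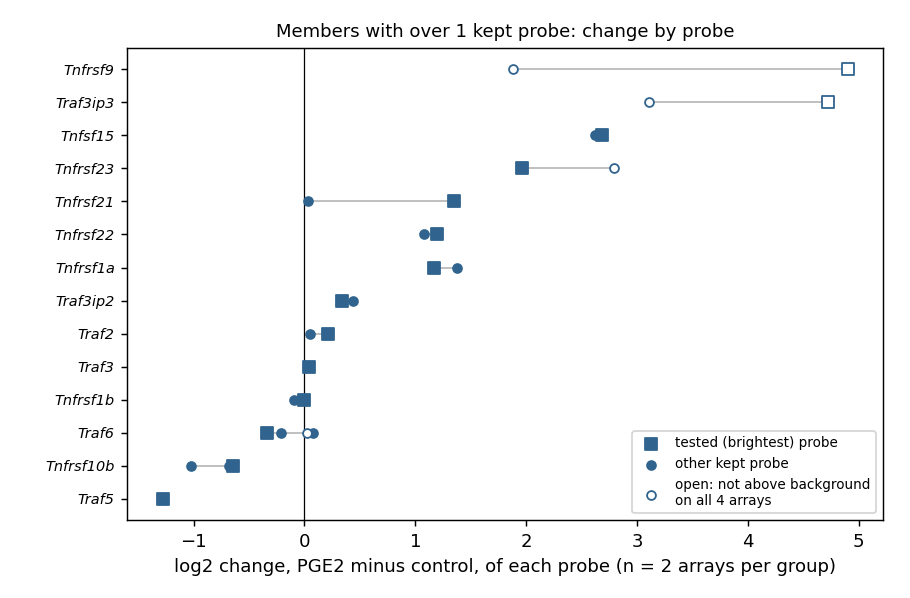
Log2 difference of PGE2 minus control (x axis) for each kept probe of the 14 tested genes with more than 1 kept probe (y axis), with squares for the tested probe, circles for the others and open symbols for probes not above background on all 4 arrays. In 10 of the 14 genes the probes lie within 0.5 of each other, and the open symbols of Tnfrsf9 and Traf3ip3 mark differences taken against dim control values.

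Of the 7 TRAF genes, 6 were tested, all above background on all 4 arrays, and none was called, at adjusted p-values from 0.160 to 0.930 in limma's fit. Traf4 read 1837, 1992, 3018 and 3149, with the replicates of a group close together, both PGE2 arrays higher and a log2 difference of 0.69 ± 0.16 (SE) at an adjusted p of 0.160. Traf5, an adaptor of Cd40, Ltbr and other receptors, read 1213, 647, 380 and 354. Both PGE2 arrays were lower, with a log2 difference of -1.27 ± 0.35 (SE) at an adjusted p of 0.203, and its second probe gave -1.29.

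Traf2, the adaptor that with Traf5 links TNF receptors to NF-kB and JNK, read 5074, 3547, 5625 and 4301. Traf3, which restrains the non-canonical NF-kB pathway, read 2263, 1786, 1994 and 2145. Their groups overlapped, with log2 differences of 0.21 (95% confidence interval -0.52 to 0.95) and 0.04 (95% confidence interval -0.49 to 0.57). Traf6, a ubiquitin ligase that also serves Toll-like and interleukin-1 receptors, had a difference of -0.34 and was the only member whose kept probes differed in sign, from -0.34 to 0.08. Traf7 had a difference of 0.04. Traf1, itself an NF-kB target gene, was below background on all 4 arrays.

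All 3 genes named for binding Traf3 were tested, and Traf3ip3 was called higher. Traf3ip3, a coiled-coil protein best known from lymphocytes, read 8.86, 12.2, 356 and 211. It was below background on both control arrays and above it on both PGE2 arrays, and was at least 6.70-fold higher with PGE2. The fitted log2 difference was 4.72 ± 0.34 (SE) with an adjusted p of 0.0462. The second Traf3ip3 probe read 7.93, 10.9, 86.4 and 74.6, with a log2 difference of 3.11. It too was below background on both control arrays and was kept only through the PGE2 arrays, so its difference is no separate support.

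Without control replicate 1 or control replicate 2 the adjusted p of Traf3ip3 was 0.149 or 0.108, and with normexp the log2 difference was 2.25 at an adjusted p of 0.0571, in a range from 0.0365 to 0.214 over all alternatives. Traf5, in the same cytoband, 1qH6, had a difference of the opposite sign. The other 2 proteins named for Traf3 have other main roles: Traf3ip2 (Act1), the adaptor of the interleukin-17 receptor, read 799, 663, 931 and 910, with a log2 difference of 0.34, and Traf3ip1, a component of intraflagellar transport in cilia, read 179, 184, 181 and 189, with one of 0.03. Neither passed the threshold, at adjusted p-values of 0.403 and 0.945.

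**Figure D4:**
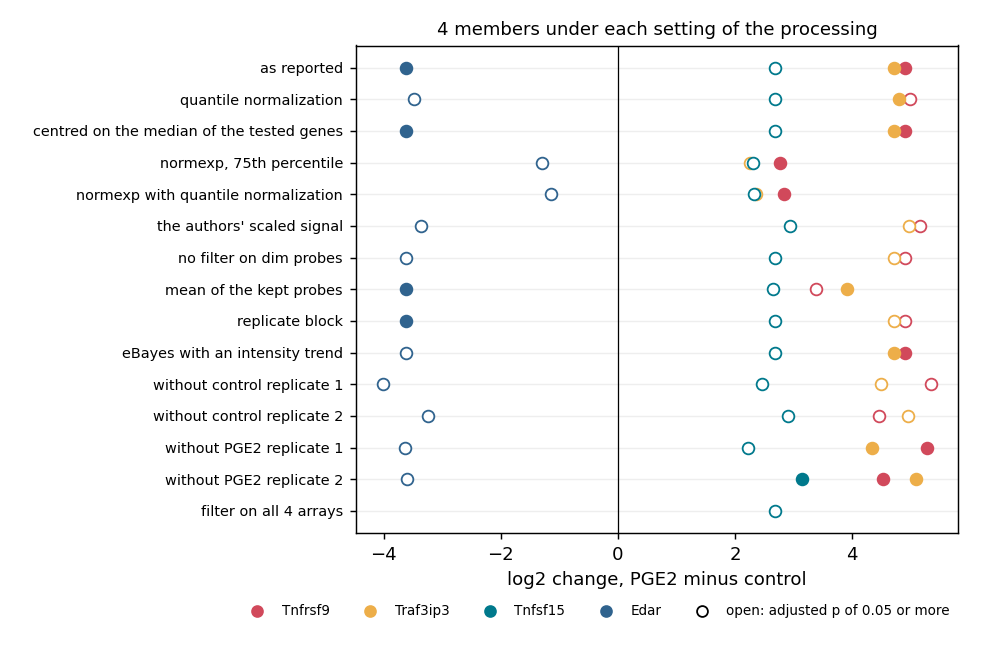
Log2 difference of PGE2 minus control (x axis) of Tnfrsf9, Traf3ip3, Edar and Tnfsf15 under the settings of the processing (y axis), with filled points where the adjusted p was under 0.05. The differences keep their direction under every setting shown, and normexp gives the smallest for Tnfrsf9, Traf3ip3 and Edar.

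Around the receptors, 27 genes of the receptor complex, of cell death and of ubiquitin editing were tested and none was called by limma (3 higher and 2 lower at an unadjusted p under 0.05). Of all tested genes 7.31% were higher and 10.5% lower at that threshold, and 0.396% were called higher and 0.272% lower. The counts for this list and those below are to be read beside these shares. The 3 of highest mean signal, Sharpin, Rbck1 and Tnip1, had log2 differences of 0.13, 0.07 and -0.06. Chosen after the values were seen, Tnfaip3 (A20), which limits TNF signalling by editing ubiquitin chains, read 1075, 864, 310 and 337, with a log2 difference of -1.58 ± 0.19 (SE) and an adjusted p of 0.0707. Map3k14 (NIK), the kinase of the non-canonical pathway downstream of Ltbr, chosen in the same way, read 310, 327, 657 and 636, with a log2 difference of 1.02 ± 0.15 (SE) and an adjusted p of 0.0909. For each gene the groups did not overlap.

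Of 13 NF-kB subunits, inhibitors and kinases, all tested, 1 was called. This was Bcl3, a nuclear IkB protein, at 641, 659, 9520 and 7504 with a log2 difference of 3.70 ± 0.19 (SE) and an adjusted p of 0.0438. Of 24 genes known to be induced by TNF in vascular cells, 16 were tested and 1 was called, the chemokine Cxcl1, at 1338, 2014, 13989 and 13666 with a log2 difference of 3.07 ± 0.25 (SE) and an adjusted p of 0.0465. For both genes the PGE2 arrays were far above the controls. Without either control sample both calls were lost, and that of Cxcl1 also without PGE2 replicate 1 (adjusted p = 0.0727) or PGE2 replicate 2 (adjusted p = 0.0589), with adjusted p-values from 0.0308 to 0.233 over its alternatives. Of the 16 tested genes, 3 were higher and 3 lower at an unadjusted p under 0.05, in both directions without a further call. Named after their values were seen, the cytokine Il6 was at least 25.0-fold higher (adjusted p = 0.0576) and Tnfaip6 had a log2 difference of 5.08 (adjusted p = 0.0727). Il6 and Tnfaip6 passed the filter through the PGE2 arrays alone. They therefore had to differ, and their p-values, also under the alternatives below, are a description and no support. The growth factor Csf1 had a log2 difference of -2.27 (adjusted p = 0.103), and the adhesion molecule Vcam1 one of -1.27 (adjusted p = 0.120). Some alternatives ended differently: without PGE2 replicate 2, Il6 (adjusted p = 0.0488) and Tnfaip6 (adjusted p = 0.0365) passed the threshold, and Tnfaip6 also without PGE2 replicate 1 (adjusted p = 0.0419).

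None of the 6 sheddases, regulators and inhibitors of TNF shedding was called by limma (1 had an unadjusted p under 0.05), with Timp3 at -0.19, Rhbdf1 at -0.28 and Adam10 at 0.69 on the log2 scale. Of 8 superfamily genes that the symbol rule does not reach, 3 were tested and none was called, with 1 at an unadjusted p under 0.05. These were Fas (-0.30), Relt (-0.59) and Eda2r (-0.82), a second receptor of the ectodysplasin family. The Relt difference turned to 0.94 with the mean of its 3 kept probes.

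The labelled cell type was checked against marker genes. Of 10 smooth muscle markers 6 were tested, and their log2 differences were all below 0, with a median of -1.70 and no call by limma (3 lower at an unadjusted p under 0.05). Acta2, Tagln and Myl9 had differences of -2.10, -1.79 and -1.61. The summed intensity of the 10 was 571489 and 339911 in the controls and 125228 and 175904 with PGE2. Myh11, Lmod1, Des and Myocd were not tested. The lower signal of these markers was seen in the same comparison of samples as every difference above, and its part in those differences was not tested.

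Markers of other cells were checked too. Of 8 T and B lymphocyte markers 3 were tested, among them Cd4 (-0.13) and Cd3e (-0.12). The sum over the 8 was 1611 to 2169 in the controls and 1530 to 1744 with PGE2, and most of it is the signal of Cd4 and Cd3e. Cd3d, Cd8a and Cd79a were below background on all arrays. Of 10 macrophage markers 5 were tested, among them Itgam (-0.61), Csf1r (0.98) and Cd14 (0.62), and Adgre1, Lyz2, Tyrobp and Aif1 were below background on all arrays. The sum over the 10 was 37221 to 45194 in the controls and 24058 to 35803 with PGE2, and most of it is the signal of Itgam. Both PGE2 arrays lay above both controls for 3 of the 5, as for 24% of all tested genes. They lay below them for the other 2, as for 28.3% of all. Of the 5, 0 were called by limma and 1 had an unadjusted p under 0.05. This was Cd68, named after its values were seen, at 42.4, 79.8, 231 and 265 with a log2 difference of 2.09 ± 0.36 (SE) and an adjusted p of 0.109. Of 8 endothelial markers Pecam1 (-0.15) alone was tested, with sums of 153 to 286 and 120 to 175.

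Of 7 fibroblast markers 6 were tested, and Ly6a, which several stem and stromal cells also carry, was called higher, at a log2 difference of 4.20 ± 0.28 (SE) and an adjusted p of 0.0438. At an unadjusted p under 0.05, 2 were higher and 2 lower. Named after their values were seen, Pi16 had a log2 difference of 2.78 (adjusted p = 0.0962), Dcn one of -2.91 (adjusted p = 0.101) and Lum one of -2.17 (adjusted p = 0.159), so that the list went both ways. The fibroblast sum was 95974 to 157024 in the controls and 64891 to 73936 with PGE2. Within it Dcn alone read 111440, 47846, 10858.5 and 8640, so the sum follows Dcn and not the whole list. Of 6 osteoclast markers 2 were tested, Oscar (0.14) and Calcr, with sums of 776 to 1041 and 331 to 695. Calcr read 42.5 and 483 in the controls and was below background with PGE2, where it was at least 5.03-fold lower (adjusted p = 0.206). That bound rests on control 2, and without control replicate 2 it was 1.49-fold. The part of these cells in the differences was not tested.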

How the data were processed

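RNA of 4 samples (2 control, 2 PGE2, grouped by sample title) was labelled with Cy3 and read on 1-colour Agilent arrays. Per the file headers, the deposited intensity per spot came from Agilent Feature Extraction 11.5.1.1 with probe positions on mm9, while the submitters' processing notes name 12.0.3.1. The deposited flags for background, outliers and saturation were used as the file headers name them. No spot was saturated, and the headers give 1 slide for all 4 arrays. The deposited series table of the authors gives that intensity multiplied on each array by a constant, 0.964 for control 1, 0.945 for control 2, 1.07 for PGE2 1 and 0.990 for PGE2 2, so its scale and direction are known. The medians of those columns are 32.7, 42.9, 39.9 and 40.5 likewise. The table served for gene symbols and as an alternative, and its 4 columns of detection calls were not used.

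Spots of 1 probe were averaged, 158 probes with outlier flags were left out, and log2 processed intensities were taken minus each array's 75th percentile. A probe was kept if well above background on both arrays of a group (26100 probes), and among a gene's kept probes the one of highest mean was used. The fit was limma 3.58.1 in R 4.3.3 without a block (2 residual degrees of freedom, prior 2.15). A run on simulated data with independent noise on each array had a pass condition only on the bias of the fitted differences. It is therefore no support for the calls. A scaled intensity is a level turned back to the linear scale at the mean 75th percentile. Alternatives were quantile normalization, median centring, normexp (offset 50) on the median spot and background signals (mean spot signals were not used here), the authors' scale, other filters and probe rules, an intensity trend, a replicate block and leaving out each sample. The precision is limited by 2 arrays per group.

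The members and the gene lists were chosen with earlier results of these data known. Every member is named. Of each other list the called genes are named, or else the 3 with the highest mean signal, plus 10 genes marked as chosen by value, and 1 marker gene is not reported here. Names of the members are those of the array table. Other genes carry the current RefSeq symbol of their gene ID where 1 was found, and otherwise that of the array table. Promoter windows come from RefSeq (GRCm38.p6).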

Additional observations from a re-analysis of the deposited data

How the results depend on the processing

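Of the results named as called, none kept its call under every alternative. All 118 calls over the whole array were lost on the authors' scale and with no filter on dim probes (0 calls each, beside 4203 and 2685 genes at an unadjusted p under 0.05 in limma), and 54 genes were called with a filter on all 4 arrays, where fewer genes were tested. Leaving out a sample gave 0 to 174. In place of 2 members called higher there was 1 with quantile normalization, with normexp, with normexp and quantile normalization and with the mean of the kept probes. There were 0 on the authors' scale, with no filter and with the filter on all 4 arrays, which leaves Tnfrsf9, Traf3ip3 and Edar untested, and 0 to 3 without a sample. The 1 member called lower was kept with centring and the mean of the kept probes. With quantile normalization, both normexp settings, the authors' scale, no filter, the filter on all 4 arrays, an intensity trend or any sample left out it was 0. The median of the members was 0.29 on the authors' scale, where that of all tested genes was 0.23, and -0.090 to 0.13 without a sample. With no filter the median of all genes was -0.33. Apart from how many genes are tested or samples fitted, the cause of these shifts was not tested.

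Signs turned only for genes that did not pass the threshold. On the authors' scale the log2 difference became 0.13 for Tnf, 0.10 for Tnfrsf11a, 0.066 for Tnfrsf13b, 0.20 for Tnfrsf14, 0.25 for Tnfrsf1b, 0.14 for Tnfsf12, 0.083 for Tnfsf8, 0.14 for Cd3e, 0.13 for Cd4, 0.11 for Pecam1, 0.067 for Timp3 and 0.20 for Tnip1. With quantile normalization it became 0.025 for Tnf, 0.10 for Tnfrsf14, 0.0067 for Tnfrsf1b, 0.0080 for Pecam1 and 0.22 for Timp3. With normexp and quantile normalization it became 0.056 for Tnf, 0.036 for Tnfrsf13b, 0.0096 for Tnfrsf14, 0.016 for Tnfrsf1b, 0.0030 for Tnfsf8 and 0.24 for Timp3, and with normexp alone -0.025 for Oscar. With the mean of the kept probes it became 0.94 for Relt and 0.055 for Timp3.

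Without 1 sample at a time the difference ran from -0.35 to 0.095 for Tnf, from -1.02 to 0.039 for Tnfrsf12a, from -0.43 to 0.32 for Tnfrsf14, from -0.23 to 0.22 for Tnfrsf1b, from -0.043 to 0.32 for Tnfrsf25, from -0.045 to 0.47 for Traf2, from -0.13 to 0.21 for Traf3, from -0.0053 to 0.058 for Traf3ip1 and from -0.078 to 0.16 for Traf7. The range was -0.35 to 0.10 for Cd3e, -0.32 to 0.054 for Cd4, -0.017 to 0.30 for Oscar, -0.31 to 0.0051 for Pecam1, -0.13 to 0.28 for Rbck1 and -0.12 to 0.0078 for Tnip1. A lone sample of a group is here assumed to vary like the other group.

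Replicates share numbers across the groups in the titles. Samples of the same number deviated together with a correlation of 0.42 over the tested genes, but with 2 pairs the numbers were not taken as a pairing. With the replicate block 172 genes were called instead of 118, 0 members were called higher instead of 2 (adjusted p = 0.0585 for Tnfrsf9 and 0.0530 for Traf3ip3), and 1 was called lower as before. A block for the slide was not run, since the headers name 1 slide.

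Precision is limited by 2 arrays per group, and by signal over background. The lowest scaled intensity that counted as well above background was 35.7, 47.0, 34.6 and 23.5 on control 1, control 2, PGE2 1 and PGE2 2. The 24 member probes below background on every array had medians of 8.15, 10.6, 8.31 and 5.42 in that order, and their median log2 difference was -0.53, so that no order is read from such values.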
